A study of Mus musculus with 8 samples.

Results

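The mouse Zfp genes with a numbered name code for zinc-finger proteins, the largest group of DNA-binding proteins in mammals. They were followed here in bone marrow-derived macrophages given lipopolysaccharide (LPS), a bacterial cell wall product that activates Toll-like receptor signalling, with or without the anti-inflammatory cytokine IL-10. Members were the genes of the deposited table whose symbol is Zfp followed by a number, without Zfp36, and whose normalized mRNA reads averaged 100 or more over the 4 groups. There were 218 such genes of 11415 in the table. The table held 262 Zfp genes with a numbered name, again without Zfp36, and 44 of them lay below that level.

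All macrophages came from mice of the genotype IL10-/-RAG2-/- on the 129S6/SvEvTac strain, so that the cells could not make IL-10 of their own and the mice lacked mature lymphocytes. The labels give no age or sex. Bone marrow cells were grown for 5 days in serum-containing medium conditioned with M-CSF, the growth factor that drives macrophage differentiation. In the group called IL-10 throughout, 1 ng/mL IL-10 was present together with 1 ng/mL LPS for 195 min. In the group called late IL-10, LPS was given for 195 min and IL-10 was present in the last 30 min, at a dose that the label of this group does not give. The LPS group had LPS alone for 195 min, and the untreated group had neither agent. Each group had 2 libraries from independent macrophage pools. Ribosome-depleted total RNA was sequenced, and reads were deposited apart for mature mRNA and for pre-mRNA, the unspliced precursor, whose level follows ongoing transcription more closely than that of mRNA.

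Most proteins of this family carry repeats of the C2H2 zinc finger, a short fold held by 2 cysteines and 2 histidines around a zinc ion, and a row of fingers reads a stretch of DNA. Many also carry a KRAB domain, which binds the corepressor Trim28 (KAP1). Trim28 in turn recruits the histone methyltransferase Setdb1, and the complex silences transposable elements and other loci. KRAB genes arose by repeated duplication and lie in clusters on several chromosomes, often under the same repressive chromatin that their products help to set. Members without a KRAB domain include transcription activators, RNA-binding proteins and ubiquitin ligases.

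Each deposited value is the mean of 2 libraries, and the reads of both libraries could be recovered from it exactly. The libraries are called A and B by size factor within each group and measure, so that A of one group has no tie to A of another, nor A of the mRNA to A of the pre-mRNA. Library totals ran between 21412968 and 53172133 for mRNA and between 8661271 and 31508394 for pre-mRNA, and the shallowest library of both measures was untreated library B. Values are normalized reads, which are reads divided by the library's size factor but not by gene length. The table holds no gene with fewer than 11 mRNA reads in either LPS library, so that a gene silenced by LPS below that level is not analysed here. Of the macrophage markers, 10 of 11 were in the table, with a summed level of 649800 to 682200 normalized mRNA reads in the IL-10 throughout group, 839200 to 847600 under late IL-10, 827300 to 880400 with LPS and 510200 to 524600 in untreated cells. Most of these reads were of Lyz2 and Cd14. Cd14 had 267700 and 239200 reads with LPS against 20570 and 32250 in untreated cells, whereas Csf1r had 105300 and 86520 against 104500 and 129500. The median log2 mRNA change of the 10 genes with LPS was −0.01. Markers of B cells were in 0 of 4 cases in the table, and those of stromal cells and mast cells in 1 case each with at most 33.11 and 44.47 reads. The 7 of 9 neutrophil markers summed to 2138 to 2707 reads with IL-10 throughout, 2465 to 3244 under late IL-10, 2488 to 3000 with LPS and 1893 to 2607 in untreated cells. Of these 7, 5 rose with LPS in mRNA (limma), among them Ngp with 304 and 323.6 reads with LPS against 101.2 and 17.38 in untreated cells. The 4 of 5 dendritic cell markers, most of whose reads were of Itgax, summed to 2991 to 4548 reads with IL-10 throughout, 8908 to 15880 with late IL-10, 9483 to 17790 with LPS and 1343 to 2882 in untreated cells. The 3 of 6 T cell markers summed to 409.1 to 796.2, 542.1 to 956.7, 449.2 to 762 and 3341 to 5608 reads in the same order of groups. Cd28 made up most of the untreated sum, with 3317 and 5487 reads there and 394.6 and 617.7 with LPS, whereas Lck had 36.06 and 117.7 reads with LPS and 6.615 and 6.206 in untreated cells. The part of these marker shifts in the results was not tested, and in such bulk RNA fewer cells of a type and less RNA per cell cannot be told apart.

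The 218 genes divided into 90 whose translated coding sequence holds the core letters of the KRAB domain and 128 without them. A strict match of these letters misses variant KRAB domains, so the 128 are genes without the motif rather than genes without the domain. The median number of C2H2 fingers was 12 with the KRAB motif and 8 without it, the highest was 37, and 5 genes (Zfp330, Zfp503, Zfp703, Zfp839 and Zfp935) had no finger of the searched form. Of all members, 125 had another member within 500 kb and formed 26 neighbour groups, which took in 76.7% of the genes with the KRAB motif and 43.8% of the others. Chromosome 7 held 54 members, chromosome 17 held 28, chromosome 8 held 18 and chromosome 13 held 17. Because of this history of duplication, read assignment can be uncertain: 9 members shared more than 20% of their 50-base stretches with other transcripts (Zfp935, Zfp58, Zfp524, Zfp617, Zfp414, Zfp963, Zfp747, Zfp764 and Zfp959), while the median member shared 0.12%. Exons of 58 members overlapped an antisense gene and those of 20 a gene on the same strand.

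Reads per gene ran over more than 2 orders of magnitude. The members with the most mRNA reads were Zfp263 with a mean of 18350 normalized reads over the 4 groups, Zfp106 with 9075, Zfp710 with 7715, Zfp871 with 7653 and Zfp800 with 6347. Just inside the level of 100 lay Zfp229 with 103.8, Zfp14 with 104.8 and Zfp456 with 110.3, and just outside it Zfp101 with 97.87, Zfp235 with 97.74 and Zfp59 with 96.24. The median member had 475.7 normalized mRNA reads with IL-10 throughout, 371.3 with late IL-10, 387.9 with LPS and 594.1 in untreated cells, whereas the median of all genes was between 771.2 and 776.2 in the 4 groups. Of the 218 genes, 18 reached the level of 100 only through the untreated group, since their other 3 groups averaged less, and 0 only through another group. A fall with LPS is thus built into the choice of these 18, which include Zfp395, Zfp41, Zfp14, Zfp759, Zfp810, Zfp174 and Zfp229. For pre-mRNA, the medians over members were 278.9, 252.6, 278.4 and 368.5 in the same order.

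The first comparison asks what LPS did to these genes in the absence of IL-10. More members fell than rose in both measures, with Zfp395, Zfp41, Zfp704, Zfp14 and Zfp398 the 5 largest falls of mRNA, and Zfp811, Zfp800, Zfp131, Zfp263 and Zfp658 the 5 largest rises. Zfp395, Zfp41 and Zfp14 are members only through their untreated level. In mRNA, 16 of 218 members rose and 63 fell at a limma adjusted p under 0.05, that is 7.34% and 28.9%, against 19.2% and 16.5% of all 11415 genes tested. In pre-mRNA, 21 of 217 rose and 57 fell, against 22.3% and 21.7% of all 11131 genes tested. The share that rose was thus below that of all genes in both measures, and the share that fell was above it. The members include 18 genes with a fall built into their choice. Without those, 44 of 199 fell in pre-mRNA, a share close to that of all genes. In mRNA 48 of 200 fell without them, still above the share of all genes. The median log2 change (LPS minus untreated, on log2 of normalized reads + 1) was −0.44 for the members' mRNA with 151 of 218 below 0, and −0.38 for their pre-mRNA with 138 of 217 below 0, against 0.01 and 0.00 for all genes. Both measures called the same 12 genes as higher, which is 75% of the mRNA rises and 57.1% of the pre-mRNA rises. They called the same 43 genes as lower, which is 68.3% and 75.4% of the falls, and called 0 genes in opposite directions.

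These counts depended on single libraries. Without untreated library A, 13 members rose and 31 fell in mRNA (median −0.24), and without untreated library B, 7 rose and 59 fell (median −0.75). Without LPS library A, 13 rose and 45 fell, and without LPS library B, 6 rose and 23 fell. The pre-mRNA counts were 16 higher and 36 lower without untreated A, 12 and 38 without untreated B, 14 and 35 without LPS A, and 20 and 55 without LPS B. Falls outnumbered rises in each of these 8 fits. Calls among all genes moved too. In mRNA 4080 genes were called with all libraries, 2443 without untreated A, 2584 without untreated B, 3095 without LPS A and 1860 without LPS B. In pre-mRNA the numbers were 4902 with all libraries and 3196, 3150, 3386 and 4839 in the same order. When libraries were scaled to equal totals in place of the authors' size factors, 6 members rose and 122 fell in mRNA and 9 rose and 127 fell in pre-mRNA. That scaling moved the median of all genes to −0.74 and −0.91 with LPS. In both directions together, 5699 of all 11415 genes were then called in mRNA and 5919 of all 11131 in pre-mRNA. Next, with the authors' size factors, the 18 genes that reached the level only through the untreated group were left out, a choice made after seeing the data. Then 16 of 200 members rose and 48 fell in mRNA (median −0.33), against 19.2% and 16.5% of all genes. In pre-mRNA 21 of 199 rose and 44 fell (median −0.29), against 22.3% and 21.7% of all genes. Relative to all genes, the members' median at equal totals stayed at −0.44 and −0.38.

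Genes with the KRAB motif, 90 of the 218 members, made up 29 of the 63 falls in mRNA and 33 of the 57 falls in pre-mRNA. The share that fell in mRNA was 32.2% with the motif and 26.6% without it, against 16.5% of all genes. In pre-mRNA the shares were 36.7% and 18.9%, against 21.7% of all genes. In mRNA, 4 of 90 rose and 29 fell, and in pre-mRNA 8 rose and 33 fell, with a median log2 change of −0.68 in both measures. Among the genes without the motif, 12 of 128 rose and 34 fell in mRNA (median −0.22), and 13 of 127 rose and 24 fell in pre-mRNA (median −0.15). Changes below 0 were seen for 70 of 90 genes with the motif and 81 of 128 without it in mRNA, and for 68 of 90 and 70 of 127 in pre-mRNA. The median level of the KRAB-motif genes was 272.3 normalized mRNA reads with IL-10 throughout, 197.4 with late IL-10, 204.9 with LPS and 353.7 in untreated cells, and that of the others 878.4, 688.5, 685.0 and 859.6. Genes that are members only through their untreated level, among them Zfp14 and Zfp759 with the motif, are included in both classes where they belong. A fall with LPS is built into their choice. The split by motif was not repeated without them, so their part in the difference between the classes was not tested.

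**Figure D1:**
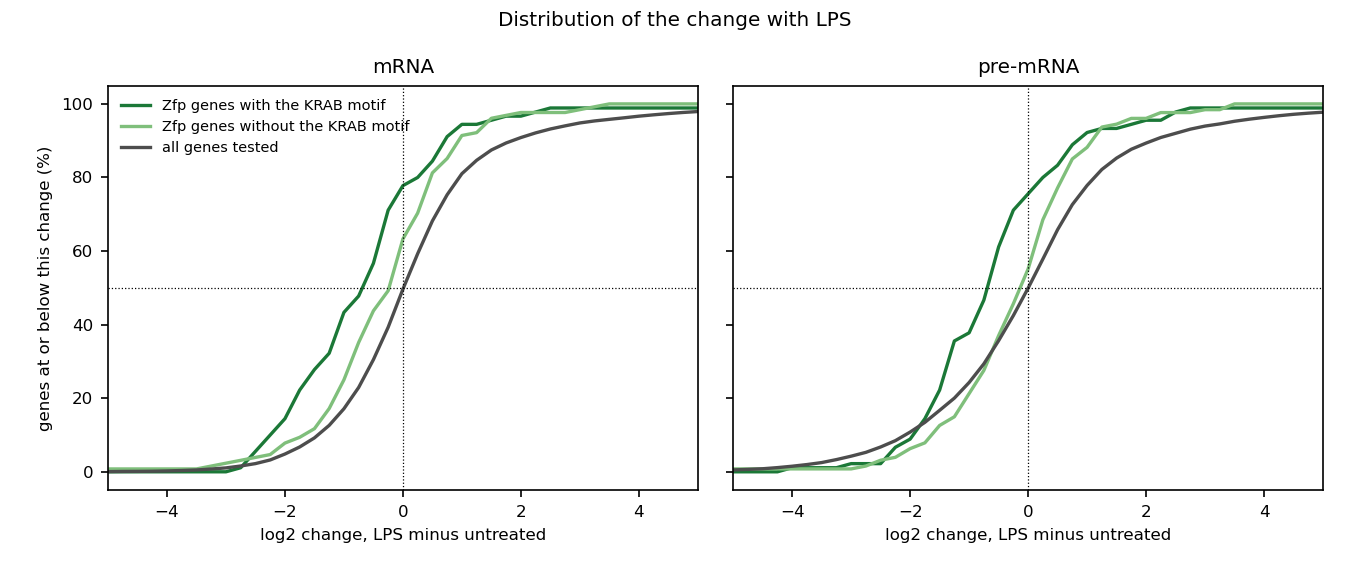
Cumulative share of genes (y axis, in percent) at or below each log2 change between LPS and untreated cells (x axis), for mRNA on the left and pre-mRNA on the right, from 2 libraries per group. The curve of the 90 Zfp genes with the KRAB motif lies to the left of that of all genes over most of its length and crosses 50% at −0.68 in both measures, while the genes without the motif cross it at −0.22 in mRNA and −0.15 in pre-mRNA.

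The KRAB-motif genes also differed between the 2 untreated libraries. In mRNA, 83 of 90 were higher in untreated library A than in library B, by a median log2 difference of 0.85, against 0.21 for the other members and 0.00 for all genes. The same held to a lesser degree for IL-10 throughout, where 72 of 90 were higher in library A (median 0.47), and for late IL-10, where 59 of 90 were (median 0.20, against 0.02 for all genes), while the LPS libraries differed by −0.11. In pre-mRNA the difference between the untreated libraries was 0.20 for the KRAB-motif genes. Set against untreated library B alone, that is without untreated A, the KRAB-motif genes still had a median mRNA change of −0.36 with 57 of 90 below 0. Their median pre-mRNA change was −0.52, and the medians of all genes were 0.01 in mRNA and −0.01 in pre-mRNA. In the same fits the members without the motif had medians of −0.21 and −0.22, so that the mRNA medians of the 2 classes lay closer together than with all libraries. Without untreated B, the medians of the KRAB-motif genes were −1.16 in mRNA and −0.88 in pre-mRNA. Those of the other members were −0.39 and −0.14, and those of all genes 0.02 and 0.01. Without LPS library A the mRNA median of the KRAB-motif genes was −0.75 and that of the other members −0.32, against 0.02 for all genes. Without LPS library B these medians were −0.75, −0.28 and 0.01.

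Among the rises, Zfp811 stood out, with very few reads in untreated cells. Zfp811 (ENSMUSG00000055202, chromosome 17, 32795676 to 32809931, minus strand, mm10) codes for a KRAB protein of 14 fingers. Its mRNA had 395.7 and 395 normalized reads in the LPS libraries, against 13.23 and 2.482 in untreated cells, which rest on 20 and 2 reads. The pre-mRNA had 548.8 and 766.6 normalized reads with LPS, against 11.19 and 11.66 in untreated cells. The groups were thus far apart in both measures, with a log2 change of 5.82 ± 0.60 (SE; limma adjusted p = 0.00074) in mRNA and 5.71 ± 0.32 (limma adjusted p = 3.5e-05) in pre-mRNA. Both IL-10 groups were also far above untreated cells, with 291.3 and 282.7 mRNA reads when IL-10 was present throughout and 330.3 and 400.2 when it came late.

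Zfp131, Zfp800 and Zfp263 carry no KRAB motif, and their log2 changes with LPS lay between 2.91 and 3.43. Zfp131 (chromosome 13, 119765187 to 119790889, minus strand) is a BTB-domain protein that binds DNA. It had 5202 and 6365 mRNA reads with LPS against 709.1 and 544.9 in untreated cells, a log2 change of 3.21 ± 0.28 (limma adjusted p = 0.00041). Its pre-mRNA had 6141 and 7300 reads with LPS against 608.9 and 628 in untreated cells (log2 3.43 ± 0.22, limma adjusted p = 5.5e-05). Zfp800 (chromosome 6, 28239927 to 28398005, minus strand), which is needed for pancreas development in mice, varied more between libraries than Zfp131 did. Its mRNA had 6631 and 14490 reads with LPS, against 1355 and 655.4 in untreated cells (log2 3.38 ± 0.58, limma adjusted p = 0.0055). In pre-mRNA it had 13220 and 7416 reads with LPS against 1152 and 852.4 in untreated cells (3.32 ± 0.40, limma adjusted p = 0.00065). An antisense gene, 6530409C15Rik, overlaps its exons.

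Zfp263 (chromosome 16, 3744093 to 3750790, plus strand), a repressor of the collagen gene Col11a2 in mouse cells, had the most mRNA reads of all members. It had 22000 and 28930 mRNA reads with LPS and 3218 and 3490 in untreated cells (log2 2.91 ± 0.30, limma adjusted p = 0.00075). The pre-mRNA had 8227 and 7597 reads with LPS and 1030 and 964.6 in untreated cells (2.99 ± 0.31, limma adjusted p = 0.00038). The LPS and untreated libraries did not overlap in either measure for any of these 3 genes, and each of their calls held when any single library was left out.

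A pair of neighbours on chromosome 7, Zfp658 (43562256 to 43575461) and Zfp719 (43579610 to 43593235), both with the KRAB motif and both on the plus strand, rose together. The human counterpart of Zfp658 represses genes in response to zinc. Zfp658 had 950 and 1958 mRNA reads with LPS, against 378.4 and 212.2 in untreated cells (log2 2.26 ± 0.53, limma adjusted p = 0.017), and 1052 and 799 pre-mRNA reads against 235.4 and 122.4 (2.43 ± 0.45, limma adjusted p = 0.0042). The mRNA call was lost without LPS library B (limma adjusted p = 0.093) or untreated library B (0.098). Zfp719 had 1356 and 2072 mRNA reads with LPS against 529.8 and 271.8 in untreated cells (2.14 ± 0.48, limma adjusted p = 0.014, but 0.083 without LPS library B and 0.085 without untreated library B). Its pre-mRNA had 1082 and 982.5 reads with LPS against 176.3 and 166.1 in untreated cells (2.58 ± 0.23, limma adjusted p = 0.00017), with a narrow spread in both groups.

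The largest fall was that of Zfp395 (ENSMUSG00000034522, chromosome 14, 65358389 to 65398930, plus strand), whose human counterpart is induced by hypoxia and binds the promoter of the Huntington's disease gene. Zfp395 is a member only through its untreated level, so that a fall with LPS is built into its choice. Its mRNA fell to 60.79 and 50.43 reads with LPS, against 2900 and 2078 in untreated cells (log2 −5.45 ± 0.30, limma adjusted p = 7.9e-05). Its pre-mRNA fell to 44.65 and 36.44 reads with LPS, against 2565 and 1980 in untreated cells (−5.77 ± 0.42, limma adjusted p = 8.5e-05). Zfp704 (chromosome 3, 9427020 to 9610085, minus strand), a relative of Zfp395 that glucocorticoids induce in mouse cells, fell as well. Zfp704 mRNA had 771.8 and 850.2 reads with LPS against 8023 and 5407 in untreated cells (−3.02 ± 0.24, limma adjusted p = 0.00026), and its pre-mRNA 1076 and 813.8 against 5716 and 5285 (−2.55 ± 0.22, limma adjusted p = 0.00016). Both genes code for proteins with a single finger of the searched form and no KRAB motif. The gene C030034L19Rik lies antisense to Zfp704 exons.

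Zfp41 (chromosome 15, 75616679 to 75629827, plus strand), like Zfp395, is a member only through its untreated level. It had 68.01 and 46.22 mRNA reads with LPS, against 655.5 and 500.2 in untreated cells (log2 −3.33 ± 0.38, limma adjusted p = 0.0011). In pre-mRNA it fell by 2.77 ± 0.57 (log2, limma adjusted p = 0.0065), with 5.875 and 10.8 normalized reads against 51.14 and 71.4. The LPS values rest on 5 and 8 reads, and this call was lost without untreated library B (limma adjusted p = 0.055). Zfp398 (chromosome 6, 47835661 to 47873537, plus strand), whose human counterpart interacts with the oestrogen receptor, had 82.43 and 63.03 mRNA reads with LPS against 594.7 and 503.9 in untreated cells (−2.91 ± 0.28, limma adjusted p = 0.00058). The Zfp398 pre-mRNA had 97.53 and 72.88 reads with LPS against 627.5 and 422.6 in untreated cells (−2.60 ± 0.29, limma adjusted p = 0.00049). Both genes lack the KRAB motif, and their LPS and untreated libraries lay far apart.

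The KRAB-motif genes with the largest falls were Zfp14 in mRNA and Zfp759 in pre-mRNA, both among the 18 that are members only through their untreated level. Zfp14 (chromosome 7, 30036359 to 30051380, minus strand, 13 fingers) had 35.03 and 26.61 mRNA reads with LPS against 281.1 and 223.4 in untreated cells (log2 −3.0 ± 0.34, limma adjusted p = 0.0011). Its pre-mRNA had 27.03 and 62.08 reads with LPS against 117.7 and 190.9 in untreated cells (−1.84 ± 0.50, limma adjusted p = 0.02), a call that was lost without LPS library A (0.1) or untreated library B (0.12). Zfp759 (chromosome 13, 67121660 to 67141787, plus strand, 21 fingers) was nearly absent from the pre-mRNA of LPS-treated cells. It had 4.7 and 8.098 pre-mRNA reads with LPS, which rest on 4 and 6 reads, against 140.6 and 112.2 in untreated cells (−4.14 ± 0.48, limma adjusted p = 0.00056). In mRNA it had 50.49 and 32.22 reads with LPS against 457.7 and 160.1 in untreated cells (−2.72 ± 0.53, limma adjusted p = 0.0086, and 0.055 without LPS library B).

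**Figure D2:**
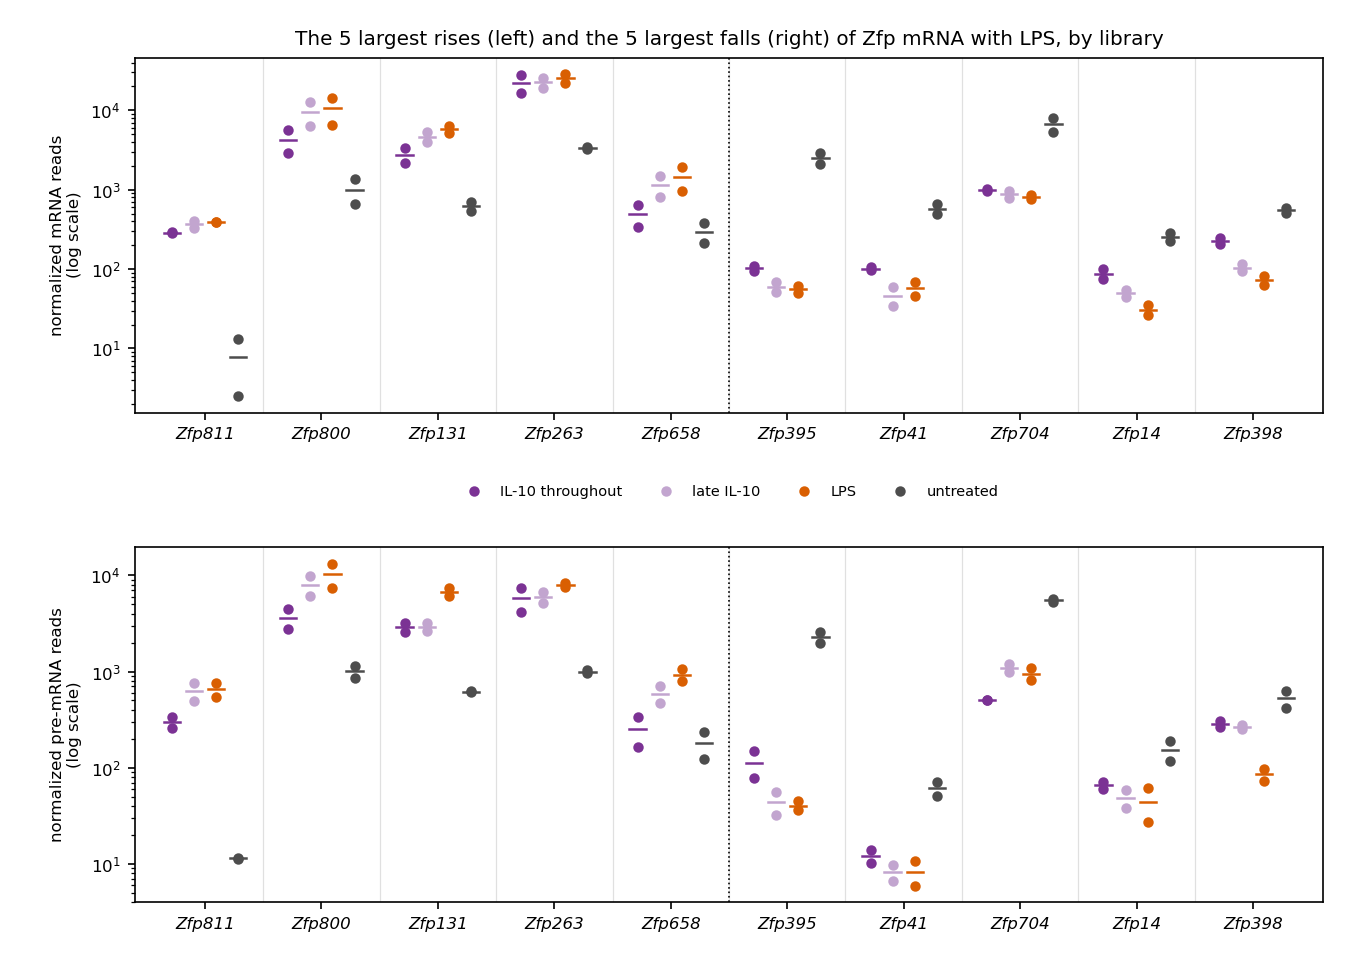
Normalized reads (y axes, log scale) of the 5 genes with the largest rises of mRNA with LPS, left of the dotted line, and the 5 with the largest falls, right of it, in mRNA (top) and pre-mRNA (bottom). Points are the 2 libraries of each group and bars their mean, with IL-10 throughout, late IL-10, LPS and untreated cells from left to right. The LPS and untreated libraries are apart for all 10 genes in both measures, and Zfp811 spans the widest range, from 2.482 to 400.2 mRNA reads.

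Members with a described role in any species formed a list of 36 genes, of which 34 were members. Of these, 8 rose and 5 fell in mRNA, and 7 rose and 5 fell in pre-mRNA with LPS. Among all genes tested, 19.2% rose and 16.5% fell in mRNA, and 22.3% rose and 21.7% fell in pre-mRNA. The list was not tested as a set. The log2 changes of the 21 that were not called lay between −0.54 and 1.29 in mRNA, and those of the 21 not called in pre-mRNA between −1.41 and 1.02. Besides Zfp131 and Zfp263, the rises were modest. Zfp407, which acts on target genes of the fat cell regulator PPARγ, rose by 1.41 ± 0.29 in mRNA (limma adjusted p = 0.01) and 2.07 ± 0.42 in pre-mRNA (0.0062). Its mRNA call was lost without LPS library B (0.067) or untreated library B (0.058). Zfp598, the ubiquitin ligase that marks collided ribosomes, rose in mRNA by 1.33 ± 0.23 (limma adjusted p = 0.0055), with 4953 and 4015 reads against 1547 and 2023. Its pre-mRNA change of 1.02 was not called (0.082). At equal library totals, the mRNA calls of Zfp598 (0.59, limma adjusted p = 0.16) and Zfp407 (0.66, 0.056) were lost.

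Zfp143, an activator of small nuclear RNA genes and many other promoters, had 1039 and 1146 mRNA reads with LPS against 572.2 and 537.4 in untreated cells (log2 0.97 ± 0.25, limma adjusted p = 0.023). Its pre-mRNA had 1295 and 1185 reads against 661.1 and 542.1 (1.05 ± 0.22, limma adjusted p = 0.0075). The mRNA call was lost without any single library (limma adjusted p 0.061 to 0.12), the pre-mRNA call was lost without untreated library B (0.051), and AA474408 overlaps its exons antisense. At equal library totals the changes of Zfp143 and Zfp207 were between 0.12 and 0.23 in both measures and were not called (limma adjusted p 0.43 to 0.7). Zfp207, a spindle assembly protein, rose by 0.94 ± 0.28 in mRNA (limma adjusted p = 0.037) and 1.04 ± 0.35 in pre-mRNA (0.044). Its calls were lost without LPS library A (0.068 in mRNA, 0.2 in pre-mRNA) or untreated library B (0.17 and 0.24), and in mRNA also without LPS library B (0.18). Zfp568, which represses a placental promoter of Igf2 in mice, rose by 0.76 ± 0.23 in mRNA (limma adjusted p = 0.039) and 0.70 ± 0.23 in pre-mRNA (0.041), but at equal library totals its changes were 0.01 in mRNA and −0.21 in pre-mRNA. Zfp346, a protein that binds double-stranded RNA, rose in pre-mRNA by 0.71 ± 0.19 (limma adjusted p = 0.021), and at equal totals its change was −0.21 too. Leaving out single libraries gave limma adjusted p values of 0.025 to 0.16 for the Zfp568 calls, with losses without LPS library B or untreated library B in both measures, and of 0.049 to 0.11 for Zfp346, whose call held only without untreated library A.

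The paralogues Zfp608 and Zfp609, which act on Rag gene expression in mouse thymocytes, were called in opposite directions in mRNA. Zfp608 had 290.6 and 474.9 mRNA reads with LPS against 1015 and 1199 in untreated cells (log2 −1.57 ± 0.32, limma adjusted p = 0.01, and 0.062 without untreated library B). Zfp609 had 3370 and 3971 reads against 2320 and 2285 (0.67 ± 0.18, limma adjusted p = 0.026), but −0.08 at equal library totals, and its call was lost without any single library (0.055 to 0.17). Pre-mRNA changes were not called for either gene (limma adjusted p = 0.057 and 0.077). Zfp266, a barrier to cardiac reprogramming in mouse cells, fell in both measures, with 440 and 456.6 mRNA reads against 1859 and 1094 (−1.67 ± 0.31, limma adjusted p = 0.0072) and a pre-mRNA change of −1.47 ± 0.23 (0.0019). Zfp217, whose human counterpart is a breast cancer oncogene, fell by 0.61 ± 0.17 in mRNA (limma adjusted p = 0.032) and by 0.81 ± 0.24 in pre-mRNA (0.027). The mRNA call of Zfp217 was lost without any single library (0.076 to 0.17), and its pre-mRNA call held only without LPS library B (0.015).

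Several well-known members were not called. Zfp91, whose human counterpart is a ubiquitin ligase of the NF-kB kinase NIK, changed by −0.18 in mRNA (limma adjusted p = 0.49). Zfp809, which silences retroviruses in mouse stem cells, changed by −0.54 (0.13), and Zfp445, which protects genomic imprints, by 0.13 (0.81). Zfp281, a regulator of pluripotency, had 2701 and 4889 mRNA reads with LPS against 1853 and 1189 in untreated cells, a change of 1.29 ± 0.44 with a limma adjusted p of 0.06.

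Promoters are shown for 4 of these genes because their LPS changes were among the largest and a RefSeq window was at hand. The windows run from 250 bases before to 50 bases after the RefSeq start on GRCm38.p6, 5′ to 3′ on the gene's strand. Capitals mark the letters CCGGAAG, typical of ETS factors, the ZNF143 letters ACTACA, any 2 bases, TCCC, and the YY1 letters AAGATGGC, on either strand. Zfp811 lies at chr17:32809882-32810181 (minus strand), Zfp14 at chr7:30051347-30051646 (minus strand), Zfp759 at chr13:67127978-67128277 (plus strand) and Zfp398 at chr6:47835411-47835710 (plus strand).
Zfp811: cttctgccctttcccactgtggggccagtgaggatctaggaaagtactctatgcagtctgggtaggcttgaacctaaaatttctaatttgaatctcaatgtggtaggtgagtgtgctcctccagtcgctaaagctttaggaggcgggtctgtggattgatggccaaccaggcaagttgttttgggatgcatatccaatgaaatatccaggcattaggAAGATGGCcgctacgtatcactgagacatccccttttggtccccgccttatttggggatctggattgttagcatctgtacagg
Zfp14: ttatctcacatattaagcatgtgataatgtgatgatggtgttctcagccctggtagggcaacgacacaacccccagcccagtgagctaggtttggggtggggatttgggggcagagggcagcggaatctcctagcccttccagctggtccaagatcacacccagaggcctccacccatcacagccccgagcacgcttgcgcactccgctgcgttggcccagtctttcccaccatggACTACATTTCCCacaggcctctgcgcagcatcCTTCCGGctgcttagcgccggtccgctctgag
Zfp759: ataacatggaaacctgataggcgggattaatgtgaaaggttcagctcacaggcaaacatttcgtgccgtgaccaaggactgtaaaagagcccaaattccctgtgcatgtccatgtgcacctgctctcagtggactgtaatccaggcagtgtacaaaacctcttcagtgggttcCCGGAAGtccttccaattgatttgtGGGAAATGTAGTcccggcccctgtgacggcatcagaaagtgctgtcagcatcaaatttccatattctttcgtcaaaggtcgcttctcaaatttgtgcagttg
Zfp398: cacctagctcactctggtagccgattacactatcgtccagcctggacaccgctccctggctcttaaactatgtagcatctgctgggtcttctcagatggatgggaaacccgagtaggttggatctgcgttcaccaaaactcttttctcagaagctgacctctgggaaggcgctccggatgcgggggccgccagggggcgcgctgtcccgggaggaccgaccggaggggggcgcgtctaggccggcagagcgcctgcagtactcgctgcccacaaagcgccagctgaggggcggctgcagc
Zfp14 and Zfp759, both lower with LPS, hold the ETS and the ZNF143 letters within the same window. Zfp811, the gene that rose most, holds only the YY1 letters of these, and Zfp398 holds only GGGCGG, the GC box, which is not in capitals.

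RefSeq windows were found for 183 members, which had 221 windows, and for 27025 genes in all with 32851 windows. The latter include genes that are not among the 11415 of the table. Shares over all windows thus come from a set of genes unlike the members, which all had reads here. The motifs were chosen after the LPS changes had been seen. The ZNF143 letters, which the product of Zfp143 itself is known to bind, were in 14% of the members' windows and in 1.81% of all windows. They were in 19.8% of the windows of KRAB-motif genes and in 10% of those of the other members. By pre-mRNA call, they were in 15 of 56 windows of members that fell with LPS (26.8%), in 1 of 25 windows of members that rose (4%) and in 15 of 139 windows of members not called (10.8%). By mRNA call the shares were 17.2%, 0 of 18 and 14.4%. The 31 members with these letters had a median pre-mRNA change of −0.82, with 30 below 0, 15 falls and 1 rise. The 151 members with a window but without the letters had a median of −0.27, with 83 below 0, 34 falls and 18 rises. Of all genes, 21.7% fell and 22.3% rose in pre-mRNA, so the falls without the letters lay near that share. In mRNA, the medians were −0.73 with the letters and −0.33 without. There 11 of 31 with the letters fell and 0 rose, and 41 of 152 without them fell and 13 rose, against 16.5% and 19.2% of all genes. Of the 31 genes, 18 had the KRAB motif. Zfp14, Zfp128, Zfp692 and Zfp759, which are members only through their untreated level, hold the letters. The counts with and without the letters were not repeated without such members.

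Genes of the table other than the members were counted in the same way. With mRNA tested, 408 of them held the ZNF143 letters and 8212 did not. Of the 403 with the letters and with pre-mRNA tested, 14.4% rose and 27% fell (median −0.26), and of the 8043 without the letters 22.7% rose and 21.7% fell (median 0.02). In mRNA, 12.5% of 408 rose and 19.1% fell (median −0.13), against 19.8% and 16.1% of 8212 without the letters (0.02). Among the other motifs, CCGGAAG was in 19.9% of the members' windows and 8.86% of all windows, GGGCGG in 51.1% and 35.7%, the CRE letters TGACGTCA in 3.62% and 1.79%, and the NF-kB letters GGGA, any 2 bases, TTCC in 1.81% and 1.47%. TATAAA was in 5.88% of the members' windows and 13.6% of all, and the AP-1 letters TGANTCA were in 3.62% and 7.81%. A window of a member held a median of 17 CG dinucleotides, and a window of any gene 7. For these motifs too, all windows include genes outside the table, and no share over the other genes of the table was taken.

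Counts were also made apart for genes in neighbour groups and genes standing alone. In mRNA, 7 of the 125 grouped genes rose and 44 fell (median −0.60), and of the 93 others 9 rose and 19 fell (median −0.24). In pre-mRNA, 10 grouped genes rose and 41 fell (median −0.67), and of the 92 others 11 rose and 16 fell (median −0.06). Of all genes, 19.2% rose and 16.5% fell in mRNA, and 22.3% rose and 21.7% fell in pre-mRNA. The falls of the genes standing alone lay near these shares. Differences between grouped and other genes were not tested, and the grouped genes include more of the KRAB-motif genes. The counts were also not repeated without the genes that are members only through their untreated level. Standing alone, the KRAB-motif genes had medians of −0.97 in mRNA and −0.66 in pre-mRNA over 21 genes, with 4 falls and 0 rises in mRNA and 7 falls and 1 rise in pre-mRNA. The genes with neither a near member nor the motif had medians of −0.09 over 72 genes in mRNA and 0.10 over 71 in pre-mRNA.

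Within a neighbour group, members differed. The largest group, 14 genes from Zfp160 to Zfp945 on chromosome 17 (21008903 to 22867134), had 0 rises and 4 falls in mRNA and 1 rise and 5 falls in pre-mRNA. All 11 genes of the chromosome 13 group from Zfp712 to Zfp65 (67038596 to 67729173), which includes Zfp759, had a pre-mRNA change below 0, from −4.14 to −0.21, with 3 called. The chromosome 6 group of 8 genes, from Zfp398 to Zfp775 (47835661 to 48623227), holds no KRAB-motif gene and had 5 falls and 0 rises in pre-mRNA, with a median of −1.03. All 5 genes from Zfp606 to Zfp324 on chromosome 7 (12478293 to 12974236) lay below 0 in both measures, with 4 falls in pre-mRNA. One of them was Zfp110, a partner of the neurotrophin receptor, whose pre-mRNA change of −0.72 ± 0.25 (limma adjusted p = 0.048) was lost without any single library (0.057 to 0.2).

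Other groups moved in both directions. In the chromosome 17 group of 9 genes from Zfp871 to Zfp414 (32765496 to 33631779), Zfp811 rose by 5.71 in pre-mRNA and the lowest member changed by −1.92. On chromosome 16, Zfp263 rose by 2.91 in mRNA while Zfp174, which lies within the same 0.14 Mb, fell by 2.51 (limma adjusted p = 0.0034). A fall with LPS is built into the choice of Zfp174, which is a member only through its untreated level. The fall of Zfp174 pre-mRNA (−2.23, limma adjusted p just under 0.05) was lost without any single library (0.11 to 0.2). The chromosome 7 trio of Zfp715, Zfp658 and Zfp719 (43296197 to 43593235) was above 0 throughout, with changes of 0.38 to 2.26 in mRNA and 0.51 to 2.58 in pre-mRNA and 2 of 3 genes called in each.

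**Figure D3:**
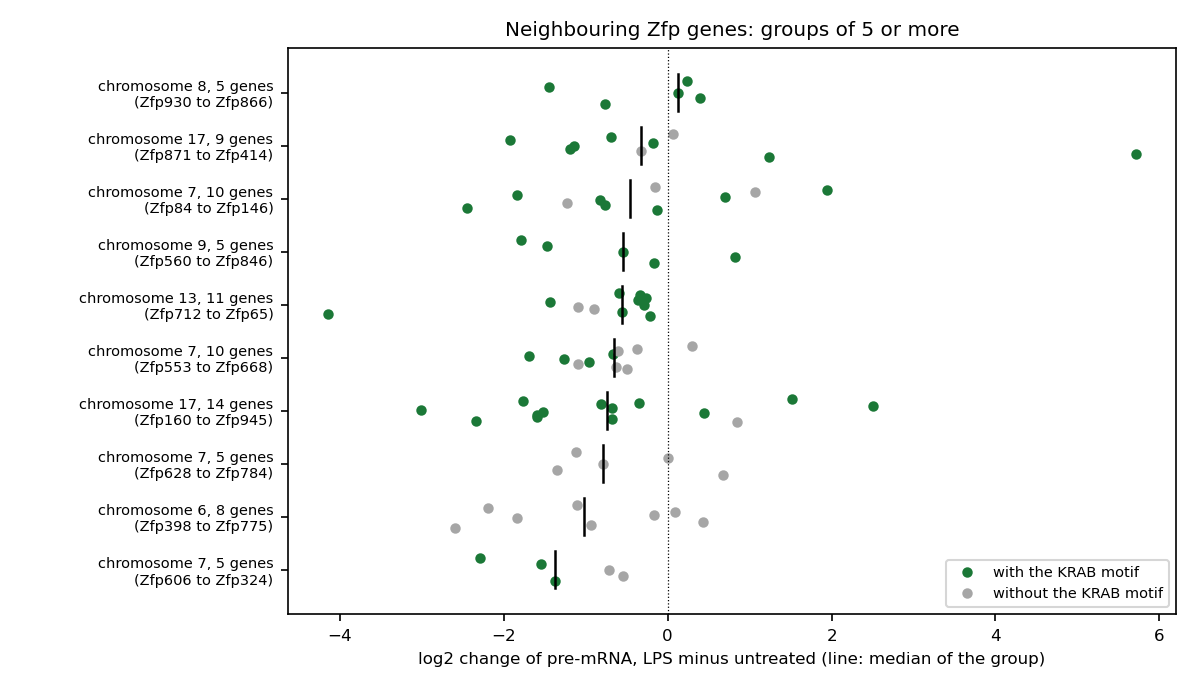
Log2 change of pre-mRNA between LPS and untreated cells (x axis) for the members of each neighbour group of 5 or more genes (rows), with a vertical line at the group's median. Points are genes, dark with the KRAB motif and grey without, and their height within a row is only for display. Most medians lie left of 0, the lowest at −1.37 for the 5 genes from Zfp606 to Zfp324, and Zfp811 stands apart at 5.71.

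Both measures of each member were then set side by side. A test of whether the LPS change differed between the measures called 0 of 217 members, against 0.162% of all 11131 genes with a higher and 1.08% with a lower change in pre-mRNA. At an unadjusted limma p under 0.05, the change was higher in pre-mRNA for 6 members and lower for 0. Of all 11131 genes, 372 were higher and 813 lower at that p. The measures come from the same RNA and were treated as independent in this fit. Zfp943, a KRAB-motif gene of chromosome 17 (21962552 to 22071168, plus strand), stood farthest from the diagonal. Its pre-mRNA had 15560 and 17780 reads with LPS against 2739 and 3171 in untreated cells (log2 2.5 ± 0.30, limma adjusted p = 0.00065). Its mRNA had 166.9 and 186.3 reads with LPS against 346 and 111.7 in untreated cells (−0.16, limma adjusted p = 0.87). The difference of 2.65 ± 0.70 between the measures had a limma adjusted p of 0.11, and the antisense gene Gm9772 overlaps its exons. Zfp871 rose in pre-mRNA by 1.24 ± 0.25 (limma adjusted p = 0.0062), with 0.68 in mRNA (0.26), but at equal library totals its pre-mRNA change was 0.32 (0.24). Zfp277 fell in mRNA by 0.92 ± 0.24 (limma adjusted p = 0.025), with 0.14 in pre-mRNA, and that call was lost without LPS library A (0.071), LPS library B (0.13) or untreated library A (0.1).

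**Figure D4:**
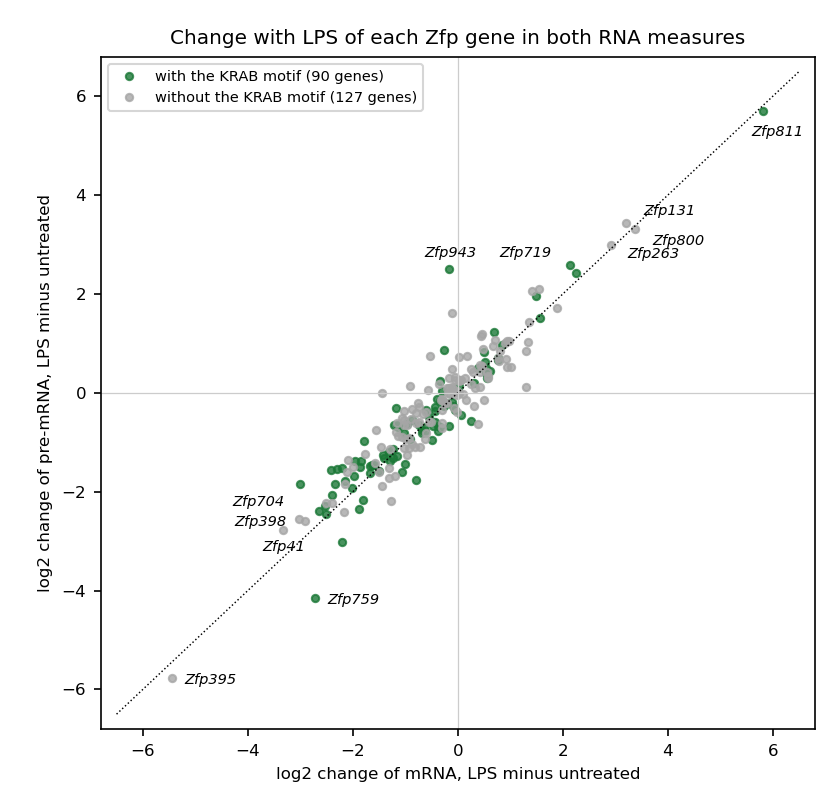
Log2 change of pre-mRNA (y axis) against that of mRNA (x axis) between LPS and untreated cells for the 217 members tested in both measures, dark with the KRAB motif and grey without, with the line of equal change dotted. Most genes lie near the line, from Zfp395 at −5.45 and −5.77 to Zfp811 at 5.82 and 5.71, and Zfp943 lies above it at −0.16 in mRNA and 2.5 in pre-mRNA.

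A ratio of pre-mRNA to mRNA was taken from the mean normalized reads over the 4 groups, with 1 added to each mean. Each measure has its own size factors, so the ratio is not a number of reads for each read. It depends on intron and exon lengths as well as on RNA turnover. The median ratio was 0.638 over the members and 0.594 over all genes, and 0.722 with the KRAB motif and 0.526 without. At the low end, Zfp830 had 0 pre-mRNA reads in every library beside a mean of 797.8 mRNA reads, and the annotation gives it 0 bases outside exons. Zfp281 and Zfp768 followed with ratios of 0.00453 and 0.0126 and with 216 and 273 bases outside exons. Zfp943 had the highest ratio, 54.9, with 103831 bases outside exons, followed by Zfp277 with 5.12 and 118623 bases and Zfp438 with 3.25 and 120739 bases.

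The next comparison asks how IL-10 present throughout changed the response to LPS. Zfp398, Zfp462, Zfp52, Zfp652 and Zfp810 were higher in pre-mRNA with IL-10 than with LPS alone, and Zfp131, Zfp658 and Zfp346 were lower. These 5 and 3 of 217 members passed a limma adjusted p of 0.05, against 2.44% and 4.26% of all genes tested. In mRNA, 1 member (Zfp398) was higher and 0 were lower, against 1.19% and 1.05% of all genes. At an unadjusted limma p under 0.05, 28 of 218 members were higher and 5 lower in mRNA, and 23 of 217 were higher and 17 lower in pre-mRNA. At that p, 716 of all 11415 genes were higher and 955 lower in mRNA. In pre-mRNA, 1053 of all 11131 genes were higher and 1515 lower. The members' median change was 0.29 in mRNA, with all genes at −0.02, and 0.17 in pre-mRNA, with all genes at 0.00. With the KRAB motif the medians were 0.43 in mRNA and 0.26 in pre-mRNA, and without it 0.24 and 0.11. These medians moved with the library left out. Without library A of IL-10 throughout, the KRAB-motif genes had 0.15 in mRNA and 0.14 in pre-mRNA, and without its library B 0.65 and 0.36. The pre-mRNA median of all members was 0.11 without that library A, 0.28 without library B and 0.12 without LPS library A, and that of the genes without the motif 0.18 without library B of either group.

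All of these calls rest on 4 libraries, and leaving out 1 of them also moved the number of calls among all genes. Without either library of IL-10 throughout, or without LPS library A, 0 members were called in pre-mRNA in both directions, and without LPS library B 7 were higher and 7 lower. Over all genes, 746 pre-mRNAs were called with all libraries, 161 and 62 without library A and B of IL-10 throughout, 163 without LPS library A and 1156 without LPS library B. With no filter on low values, Zfp462, Zfp52, Zfp652 and Zfp810 were no longer called (limma adjusted p 0.054 to 0.072), and 307 pre-mRNAs were called over all genes. The single mRNA call was lost without any of the 4 libraries. The range of limma adjusted p over these fits is given with each gene.

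Zfp398 was the 1 member called in both measures. Its mRNA had 204.6 and 249.7 reads with IL-10 throughout against 82.43 and 63.03 with LPS (log2 1.64 ± 0.28, limma adjusted p = 0.04, and 0.11 to 0.26 with a library left out; 0.065 at equal library totals). In pre-mRNA it had 306.1 and 263.2 reads with IL-10 throughout against 97.53 and 72.88 with LPS (1.74 ± 0.29, limma adjusted p = 0.018, and 0.038 to 0.1). With IL-10 its level thus lay above all LPS libraries and below all untreated ones. Zfp652 (chromosome 11, 95712673 to 95835115, plus strand), whose human counterpart is a partner of the corepressor CBFA2T3, had 517.7 and 489.7 pre-mRNA reads with IL-10 throughout against 161 and 197 with LPS (1.49 ± 0.27, limma adjusted p = 0.023, and 0.031 to 0.13). Its untreated libraries had 813.4 and 853.9 pre-mRNA reads. Its mRNA had 890 and 1224 reads with IL-10 throughout against 551.3 and 458 with LPS, which was not called (1.05, limma adjusted p = 0.15). Phospho1, Abi3 and Zfp652os overlap its exons.

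Zfp52 and Zfp810 carry the KRAB motif. Zfp52 (chromosome 17, 21535539 to 21562601, plus strand) had 458.7 and 333.3 pre-mRNA reads with IL-10 throughout against 106.9 and 132.3 with LPS (log2 1.71 ± 0.31, limma adjusted p = 0.022, and 0.031 to 0.12). The untreated libraries had 430.9 and 306 reads, so that the IL-10 and untreated values overlapped. The gene 9330136K24Rik lies antisense to Zfp52 exons. Zfp810 (chromosome 9, 22276748 to 22307648, minus strand) had 314.2 and 269.7 pre-mRNA reads with IL-10 throughout against 115.2 and 124.2 with LPS (1.28 ± 0.26, limma adjusted p = 0.033, and 0.049 to 0.16). In untreated cells it had 709 and 555.2.

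Zfp462 (chromosome 4, 54945048 to 55083563, plus strand), a large protein of 34 fingers that restrains endoderm genes in mouse embryonic stem cells, had overlapping LPS and untreated libraries. Its pre-mRNA had 2773 and 1303 reads in the IL-10 throughout libraries, 1134 and 641.9 under late IL-10, 418.3 and 260.5 with LPS and 285.5 and 460.5 in untreated cells. IL-10 throughout was above LPS by 2.52 ± 0.47 (limma adjusted p = 0.024, and 0.049 to 0.11 with a library left out). The mRNA had 3891 and 1936 reads with IL-10 throughout against 532.7 and 596.7 with LPS, a difference of 2.28 ± 0.46 that was just short of the threshold (limma adjusted p = 0.06). The LPS change of its pre-mRNA was −0.14 (0.83).

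Of the 3 lower genes, Zfp131 had 3210 and 2590 pre-mRNA reads with IL-10 throughout against 6141 and 7300 with LPS (log2 −1.22 ± 0.22, limma adjusted p = 0.024, and 0.05 to 0.18 with a library left out). Its mRNA had 3373 and 2179 reads against 5202 and 6365 (−1.09 ± 0.28, limma adjusted p = 0.13). Zfp658 had 337 and 162.9 pre-mRNA reads with IL-10 throughout against 1052 and 799 with LPS (−1.96 ± 0.45, limma adjusted p = 0.044, and 0.053 to 0.24). Zfp346 (chromosome 13, 55105311 to 55134825, plus strand) had 1035 and 913.6 pre-mRNA reads with IL-10 throughout against 1780 and 1715 with LPS (−0.85 ± 0.19, limma adjusted p = 0.044, and 0.071 to 0.26), and Gm17617 lies antisense to it. At equal library totals these 3 calls were lost (limma adjusted p = 0.15 for Zfp131, 0.064 for Zfp658 and 0.35 for Zfp346), and with no filter on low values that of Zfp658 was lost as well (0.1). LPS alone had raised all 3 genes over untreated cells in pre-mRNA. This comparison and that of LPS with untreated cells share the LPS libraries, so that a high or low LPS value moves both.

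**Figure D5:**
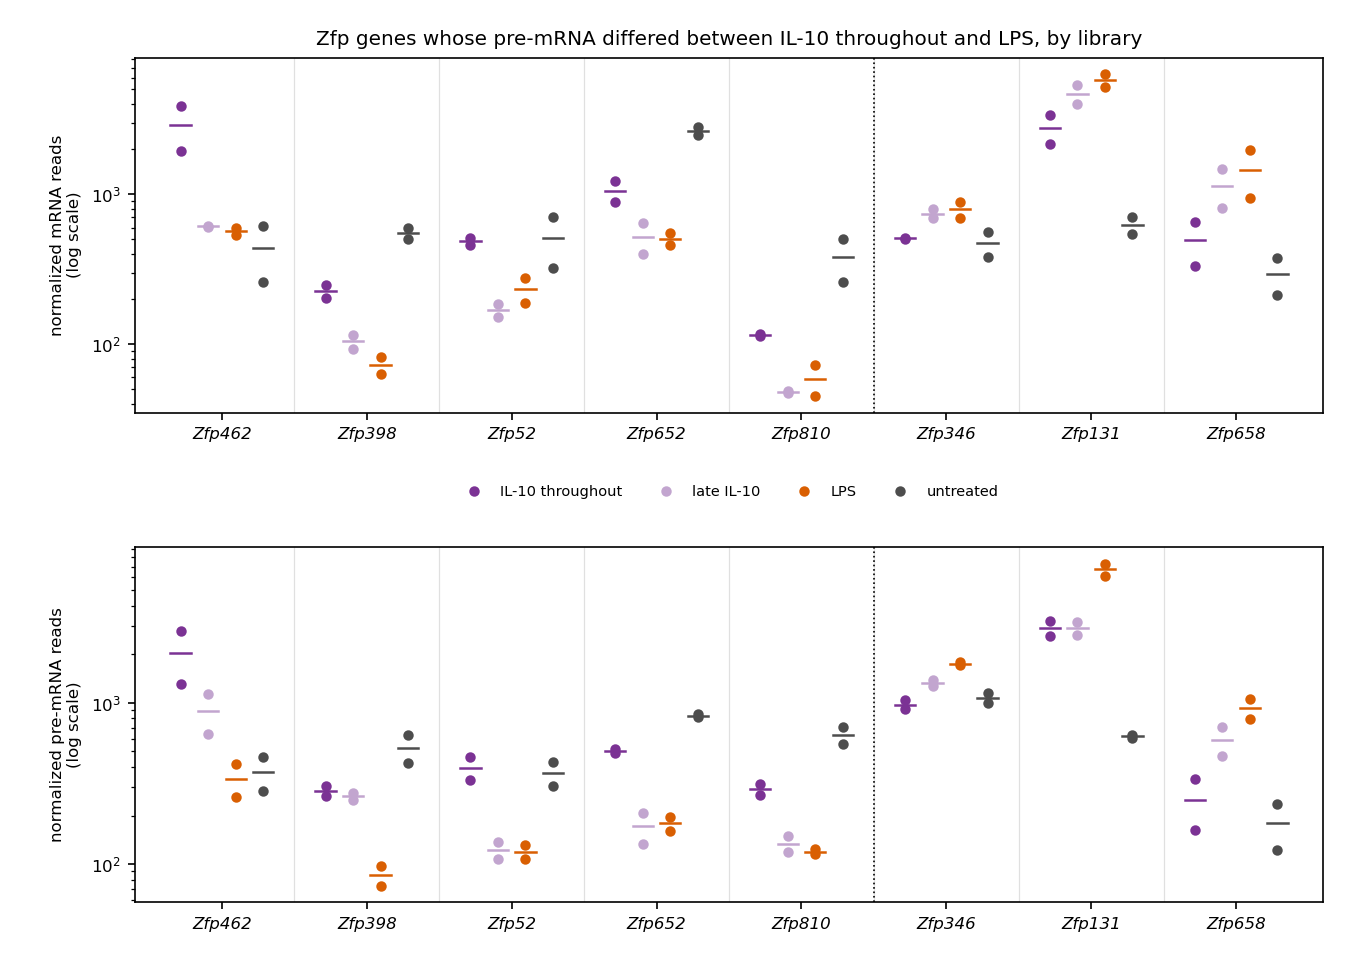
Normalized reads (y axes, log scale) of the 8 members whose pre-mRNA differed between IL-10 throughout and LPS, the 5 higher ones left of the dotted line and the 3 lower ones right of it, in mRNA (top) and pre-mRNA (bottom). Points are the 2 libraries of each group and bars their mean, with IL-10 throughout, late IL-10, LPS and untreated cells from left to right. In pre-mRNA, late IL-10 lies with IL-10 throughout for Zfp398 and Zfp131 and with LPS for Zfp52, Zfp652 and Zfp810.

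Adding IL-10 for only the last 30 min gave no called member. In mRNA 0 members were higher and 0 lower, where 0% of all genes were called in either direction (limma), and at an unadjusted p under 0.05 there were 0 members in either direction. At that unadjusted p, 92 of all 11415 genes were higher and 15 lower. In pre-mRNA 0 members were called, against 0.979% higher and 0.0629% lower among all genes, and 7 of 217 were higher and 4 lower at an unadjusted p. Of all 11131 genes, 554 were higher and 293 lower at that unadjusted p. The median change of the members was −0.06 in mRNA and −0.01 in pre-mRNA. The 2 members nearest to a call were Zfp398 and Zfp131, chosen here after their values were seen. Zfp398 had 277.3 and 251.4 pre-mRNA reads with late IL-10 against 97.53 and 72.88 with LPS (log2 1.64 ± 0.29, limma adjusted p = 0.054), and it passed (0.048) where genes under a mean of 20 reads were left out. Its mRNA had 93.18 and 115.4 reads with late IL-10 against 82.43 and 63.03 with LPS (0.52 ± 0.28), above LPS in both libraries but by less than in pre-mRNA. Zfp131 had 3189 and 2619 pre-mRNA reads with late IL-10 against 6141 and 7300 with LPS (−1.21 ± 0.22, limma adjusted p = 0.062), while its mRNA changed by −0.32 ± 0.28, with 5314 and 4017 reads against 5202 and 6365.

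IL-10 throughout was also set against late IL-10, which differ in how long IL-10 was present and may differ in its dose, which is not given for late IL-10. In mRNA 0 members were called, against 0.517% higher and 0.569% lower among all genes (limma), with 30 of 218 higher and 3 lower at an unadjusted p under 0.05 and a median change of 0.38. Of all 11415 genes, 689 were higher and 912 lower at that unadjusted p. In pre-mRNA Zfp52 and Zfp652 were higher and Zfp704 was lower, against 0.755% and 2.2% of all genes, with 19 of 217 higher and 15 lower at an unadjusted p. Of all 11131 genes, 972 were higher and 1435 lower at that unadjusted p. Zfp652 had 517.7 and 489.7 pre-mRNA reads with IL-10 throughout against 134.2 and 208.7 with late IL-10 (log2 1.58 ± 0.27, limma adjusted p = 0.036). Zfp52 had 458.7 and 333.3 against 106.8 and 136.9 (1.68 ± 0.31, limma adjusted p = 0.039). Zfp704 had 505.2 and 507 reads with IL-10 throughout against 1200 and 992 with late IL-10 (−1.11 ± 0.22, limma adjusted p = 0.046), on top of its fall with LPS alone; this call was lost at equal library totals (0.13), and those of Zfp652 (0.074) and Zfp52 (0.084) with no filter. All 3 calls were lost when any 1 of the 4 libraries was left out, and so were nearly all pre-mRNA calls over all genes. In these fits the log2 difference was 1.27 to 1.9 for Zfp652, 1.45 to 1.91 for Zfp52 and −1.24 to −0.97 for Zfp704. Zfp398 was not called in either measure. Its pre-mRNA difference was 0.10 ± 0.29 (limma adjusted p = 0.89). In mRNA it was 1.12 ± 0.28 (limma adjusted p = 0.14), with 204.6 and 249.7 reads with IL-10 throughout against 93.18 and 115.4 with late IL-10, which did not overlap.

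The cofactors of KRAB repression were looked at beside the family. Of 36 listed genes 34 were in the table, and with LPS 4 rose and 5 fell in mRNA, likewise 4 and 5 in pre-mRNA. These are 11.8% and 14.7% in each measure, against 19.2% and 16.5% of all genes in mRNA and 22.3% and 21.7% in pre-mRNA. The median log2 change of the list was −0.16 in mRNA and 0.15 in pre-mRNA, so the list as a whole did not share the falls named next. The methyltransferase Setdb1 had a mean of 1043 mRNA reads with LPS against 2519 in untreated cells (log2 −1.26 ± 0.20, limma adjusted p = 0.0044), and its partner Atf7ip fell by 1.35 ± 0.19 (0.0025). Trim28, the scaffold of the complex, had 2891 against 4136, which was not called (−0.54 ± 0.29, limma adjusted p = 0.19). The maintenance DNA methyltransferase Dnmt1 fell to 826.2 mRNA reads with LPS against 3741 in untreated cells (−2.25 ± 0.52, limma adjusted p = 0.017, but between 0.055 and 0.097 when LPS library B or either untreated library was left out). The deacetylase Hdac1 rose by 2.56 ± 0.44 (0.0053).

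Other C2H2 families gave other counts with LPS, where 19.2% of all genes rose and 16.5% fell in mRNA. In pre-mRNA the shares of all genes were 22.3% and 21.7%. Of 15 Zkscan and Zscan genes, whose products carry a SCAN domain and often lie in the same clusters, 0 rose and 8 fell in mRNA (median −1.03), and 0 rose and 7 fell in pre-mRNA (median −0.74). Of 37 Zbtb genes, which join a BTB domain to the fingers as Zfp131 does, 5 rose and 10 fell in mRNA and 6 rose and 9 fell in pre-mRNA. Zbtb46, which is also a dendritic cell marker of the list above, rose by 2.95 and Zbtb4 fell by 1.95 on the log2 scale in mRNA. Of 12 Klf genes, short proteins with 3 fingers at their end, 4 rose and 3 fell in mRNA, with Klf7 at 4.03 ± 0.20 (limma adjusted p = 5.4e-05) and Klf11 at −1.57 ± 0.35 (0.015, but 0.079 without LPS library B and 0.081 without untreated library A). Their median was 0.34.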

How the data were processed

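RNA of bone marrow-derived macrophages from 4 groups of 2 libraries was measured as mRNA and pre-mRNA. Per the submitters' processing notes, reads were trimmed with Trim Galore and DESeq and the genome mm10 were used; which aligner and counter were run, and how reads came to be counted as pre-mRNA, is not given in the sources used here. The deposited signal is, per group and measure, the mean of 2 libraries' reads each divided by a size factor, as the values themselves show: whole reads for both libraries were recovered for 100% of the deposited values, with a largest relative error of 5.2e-15 and 0 values with a second solution. The recovery was tested on simulated data. Read depth is known from this recovery, and 2 libraries per group limit the precision; p-values measure only the spread between pools.

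limma 3.58.1 (R 4.3.3, trend) was fitted to log2(normalized reads + 1) of all 8 libraries of a measure, with group as the term, over genes with a mean of at least 1 (11415 in mRNA, 11131 in pre-mRNA), and p-values were adjusted by Benjamini-Hochberg over all of them. The threshold was 0.05. A fold change on this scale understates that of low genes. The alternatives were a pseudocount of 10, a mean of at least 20, no filter, scaling to equal totals, limma-voom, and leaving out each library. The split by KRAB motif under each of these was added after the data were seen.

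Members were matched to GENCODE M21 on GRCm38, 218 of 218, 2 of them by synonym. Protein classes came from its translated transcripts and not from RefSeq proteins, which were not used here: the KRAB motif is LY, any 2 residues, VM, any residue, E, and a finger is C, 2 to 4 residues, C, 12 residues, H, 3 to 5 residues, H. Promoters are RefSeq windows. Named genes were the 5 largest rises and falls per comparison and measure with libraries that do not overlap, the 5 members with the most mRNA reads, the 3 on either side of the level of 100, a list of members with a described role, and the 3 highest and 3 lowest ratios of pre-mRNA to mRNA. Members, lists and markers were chosen with earlier results of these data known.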

Additional observations from a re-analysis of the deposited data

How the results depend on the processing

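Of 513 values recomputed for the named genes, 394 kept their direction and their side of the threshold, 116 kept the direction but missed the threshold, and 3 reversed, all with LPS under scaling to equal totals: Zfp609 mRNA (−0.08), Zfp346 pre-mRNA (−0.21) and Zfp568 pre-mRNA (−0.21). Of 57 named calls, 26 held with each library left out. That scaling also gave 6 higher and 122 lower members with LPS in mRNA and 9 and 127 in pre-mRNA. Of all genes, 5699 and 5919 were called there in both directions together. For IL-10 throughout against LPS there were 2 higher in mRNA and 8 higher and 1 lower in pre-mRNA (275 and 741 of all genes called). For IL-10 throughout against late IL-10 there were 1 higher in mRNA and 0 lower in pre-mRNA (158 and 352 of all genes called). Scaling to equal totals moves the median of all genes itself. With limma-voom, 0 members were higher in mRNA with IL-10 throughout than with LPS. With no filter, 1 was higher in pre-mRNA with IL-10 throughout than with LPS, where 307 of all genes were called, against 746 with the filter. Against late IL-10, 0 were higher and 0 lower in pre-mRNA, where 26 of all genes were called, against 329 with the filter. The cause was not tested. With a mean of at least 20, 1 pre-mRNA (Zfp398) was higher with late IL-10 than with LPS. Leaving out 1 library gave, with LPS, 6 to 13 higher and 23 to 59 lower members in mRNA and 12 to 20 and 35 to 55 in pre-mRNA; for IL-10 throughout against LPS 0 to 0 higher in mRNA and 0 to 7 higher and 0 to 7 lower in pre-mRNA; and against late IL-10 0 to 0 higher and 0 to 0 lower in pre-mRNA. Calls over all genes moved in these fits too, and against late IL-10 nearly all of them were lost. A library left alone in its group is assumed to vary like the other groups. No paired analysis was possible because the columns carry no replicate numbers. The 2 libraries per group limit the precision of each value.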

Other observations

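The 44 numbered Zfp genes below the level of 100 normalized reads were also compared between LPS and untreated cells. In mRNA 1 rose and 17 fell (median log2 change −1.35), where 19.2% of all genes rose and 16.5% fell, and in pre-mRNA 1 rose and 18 fell (median −1.47), where 22.3% rose and 21.7% fell. With IL-10 throughout against LPS 0 were called in either measure, with medians of 0.51 in mRNA and 0.50 in pre-mRNA, and with late IL-10 the medians were −0.28 and 0.08. Genes with under 11 reads in an LPS library are not in the table, so a gene that LPS lowered below that is not counted.

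Among the Klf genes, the Klf6 and Klf9 pre-mRNAs were below their LPS level when IL-10 was present throughout. Klf6, an early response factor, had a mean of 2126 pre-mRNA reads with IL-10 throughout against 8908 with LPS (log2 −2.08 ± 0.38, limma adjusted p = 0.023). Klf9, a glucocorticoid target, had 133.3 against 416.7 (−1.60 ± 0.31, limma adjusted p = 0.029). Both calls held without LPS library B (0.027 and 0.022) and were lost without LPS library A or either IL-10 library (0.063 to 0.16).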
